A study of Mus musculus with 5 samples.

Results

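The immediate early response genes studied here are 10 genes fixed by name, Fos, Fosb, Jun, Junb, Egr1, Egr2, Ier2, Atf3, Nr4a1 and Zfp36, each matched by its Ensembl gene ID to its mouse symbol. They are 10 of the 51912 gene IDs measured by RNA sequencing, and all 10 were found and passed the filter on low counts. The tissue is labelled dorsolateral prostate, taken from male mice aged 7 months. All mice were Ghr flox/flox and carried the SV40 C3(1) T-antigen transgene as +/0, in which the prostate-active C3(1) promoter drives the SV40 T antigen and tumours follow. All received 250 mg/kg tamoxifen on each of 5 days, and tissue was collected 1 month after the last injection. The 2 tamoxifen controls had no further allele listed. The 3 Ghr deletion mice also carried ROSA26 Cre-ERT2 +/0, a recombinase under a broadly active locus that tamoxifen switches on. Cre and Ghr deletion therefore cannot be told apart. The series describes the samples of each group as biological replicates.

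Immediate early genes are transcribed within minutes of a stimulus without new protein synthesis, and their transcripts are short-lived. Growth factor signals reach them through the MAP kinases, which act on serum response factor (SRF) and its ETS partners at CArG boxes, and through CREB at cyclic AMP response elements. Most encode transcription factors. FOS and JUN proteins pair into the AP-1 factor, EGR proteins bind GC-rich sites, NR4A1 is an orphan nuclear receptor, ATF3 is a stress-responsive bZIP factor, and ZFP36 is an RNA-binding protein that shortens the life of AU-rich transcripts. In tissue, these transcripts also respond to injury and handling.

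The promoters of 4 members are shown because their values carry the results below. Fos and Nr4a1 had lower estimates in the deletion group under every alternative tried, Zfp36 had higher ones, and Atf3 had the highest level per length. Each window runs from 250 bases before to 50 bases after a RefSeq start site (GRCm38.p6), 5′ to 3′ on the strand of the gene. Capitals mark matches to any of 6 motifs, each searched on both strands. TGACG is the core of a cyclic AMP response element, and the full element TGACGTCA holds it. An AP-1 site was taken as TGANTCA. An EGR site was taken as GCGNGGGCG. A TATA box was taken as TATAAA, and the CArG box is searched by its usual consensus. The windows are chr12:85473640-85473939 on the plus strand for Fos, chr15:101266596-101266895 on the plus strand for Nr4a1, chr7:28379179-28379478 on the minus strand for Zfp36 and chr1:191183284-191183583 on the minus strand for Atf3.
Fos: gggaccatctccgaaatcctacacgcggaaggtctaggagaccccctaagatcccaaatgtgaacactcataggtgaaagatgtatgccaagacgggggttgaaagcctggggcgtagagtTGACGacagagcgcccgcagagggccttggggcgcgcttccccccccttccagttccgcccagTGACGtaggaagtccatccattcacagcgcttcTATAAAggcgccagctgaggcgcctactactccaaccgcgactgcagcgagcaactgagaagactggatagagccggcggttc
Nr4a1: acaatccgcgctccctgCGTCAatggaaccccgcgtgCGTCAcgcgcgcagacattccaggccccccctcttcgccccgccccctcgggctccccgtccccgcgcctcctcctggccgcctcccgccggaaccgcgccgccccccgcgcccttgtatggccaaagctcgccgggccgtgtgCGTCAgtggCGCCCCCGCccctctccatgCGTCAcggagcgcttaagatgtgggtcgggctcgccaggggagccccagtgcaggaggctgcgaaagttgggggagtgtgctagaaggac
Zfp36: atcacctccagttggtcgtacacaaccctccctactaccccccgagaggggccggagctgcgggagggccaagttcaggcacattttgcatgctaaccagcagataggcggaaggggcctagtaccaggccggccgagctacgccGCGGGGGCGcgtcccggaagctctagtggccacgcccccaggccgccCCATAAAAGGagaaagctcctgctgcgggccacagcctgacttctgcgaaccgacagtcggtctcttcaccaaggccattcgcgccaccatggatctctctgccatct
Atf3: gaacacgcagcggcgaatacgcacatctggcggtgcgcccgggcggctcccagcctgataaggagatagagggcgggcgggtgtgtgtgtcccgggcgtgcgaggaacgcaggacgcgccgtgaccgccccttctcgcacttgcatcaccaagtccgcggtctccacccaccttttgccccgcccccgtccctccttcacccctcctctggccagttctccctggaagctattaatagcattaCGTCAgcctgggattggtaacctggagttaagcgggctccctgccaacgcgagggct

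A pair of CArG boxes from Egr2 start-site windows is shown beside them, since Egr2 was the EGR member with the lower estimate. They lie on the plus strand at chr10:67537484-67537513 and chr10:67537787-67537816, with the box in capitals.
Egr2 upstream box: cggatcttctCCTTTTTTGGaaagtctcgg
Egr2 downstream box: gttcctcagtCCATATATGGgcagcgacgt

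RefSeq windows were searched for 8 of the 10 members. Egr1 was not searched, as members' windows on chromosome 18 were left out, while the shares over all windows kept that chromosome. The other member not searched was Jun or Ier2, neither of which had a match. Which of them it was is not known here. The TGACG core was found in 6 of these 8 (Atf3, Egr2, Fos, Fosb, Junb and Nr4a1), against 20.8% of all 32851 windows. The EGR site was found in 3 (Fosb, Nr4a1 and Zfp36), against 5.55%. The CArG box was found in Egr2 and Zfp36, against 1.63%, and TATAAA in Fos and Junb, against 13.6%. In Junb TATAAA lies at 1 to 6 from the start site, not before it. The full element and the AP-1 site had no match in the 8 members, against 1.79% and 7.81% of all windows. Egr2 counts once with any of its windows, which gives it more chances than a gene with 1 window. In Fos the cores lie at -129 to -125 and -66 to -62 from the start site and TATAAA at -33 to -28. In Zfp36 the EGR site lies at -105 to -97 and the CArG box at -58 to -49. These are matches of letters in a fixed window and describe no binding. Sites outside the windows were not searched, so a missing match does not mean that a promoter lacks the site.

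Total counts per library ranged from 13812454 to 47656212. Ghr itself had 14.4 and 31.3 CPM (counts relative to library size after TMM scaling) in control replicates 1 and 2 and 8.13, 20.9 and 12.1 CPM in deletion replicates 1, 2 and 3, so the groups overlapped (edgeR, adjusted p = 0.995), and the count does not isolate the deleted part. The labelled tissue had few prostate transcripts in 4 libraries: the secretory gene Pbsn had 411 counts in control replicate 1 and 1, 4, 8 and 3 in the others, and 8 prostate markers summed to 26800 CPM in that library and to between 6.07 and 57.5 CPM elsewhere. Seminal vesicle genes took from 1.43% to 35.3% of a library's counts. Libraries of a group thus differed in the share of these organ genes, and their part in the members' values was not tested. In bulk tissue, fewer cells of a type and less RNA per cell cannot be told apart.

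The comparison asks whether immediate early transcripts differed between Ghr deletion and control tissue. None of the 10 members passed in edgeR's quasi-likelihood test over all 18615 genes tested (Benjamini-Hochberg adjusted p of 0.991 to 0.999), where 0 genes, or 0.0%, passed. DESeq2 and limma-voom also passed 0 members, and DESeq2 passed 166 of all genes, or 0.892%. At an unadjusted p under 0.05 there was 1 member in edgeR, Fosb, against 915 genes, or 4.92% (3.23% with lower and 1.69% with higher values after deletion). The CPM of the groups overlapped for all 10 members, whereas 19.6% of the genes tested had groups that did not overlap, 10.2% lower and 9.43% higher after deletion. The fold change was below 0 for 7 members, against 49.6% of genes, and above 0 for 3, and its median over members was -0.25 on the log2 scale, beside 0.004 over all genes tested. What stood out in the values was the difference between libraries of the same group.

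**Figure D1:**
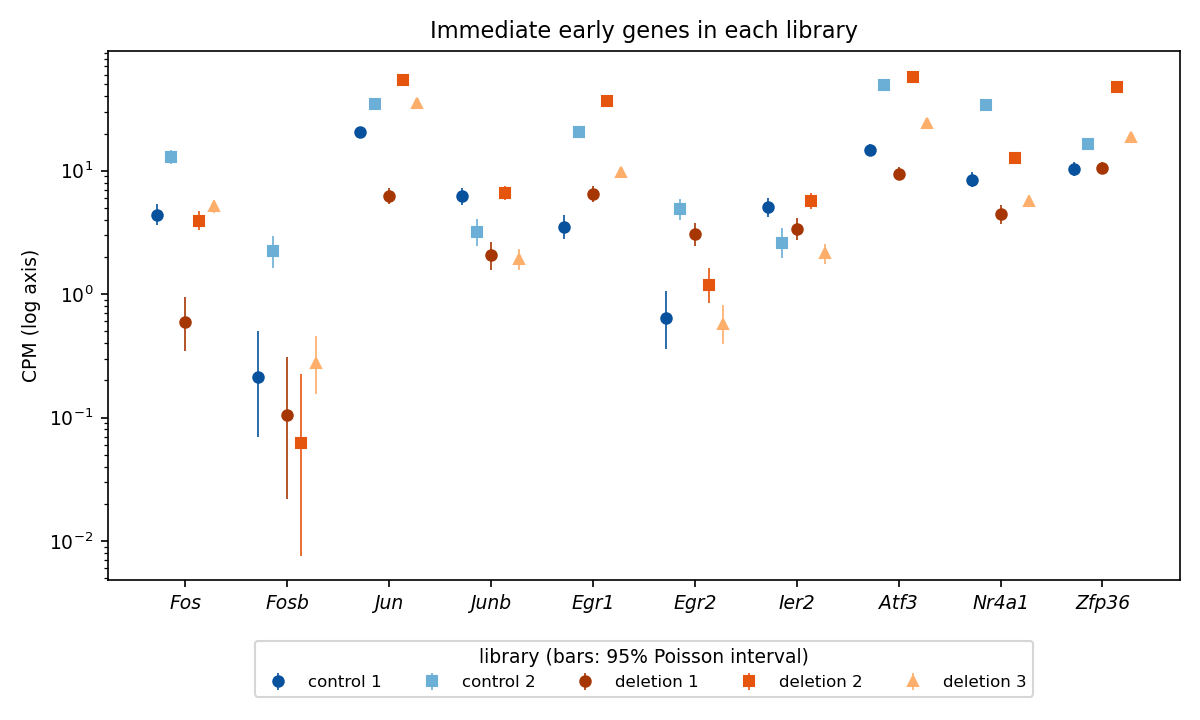
CPM of each member (log axis) in the 2 control (blue) and 3 deletion (orange) libraries, with exact 95% Poisson intervals that cover counting error only. The groups overlap for every gene, control replicate 2 is the highest library for Fos, Fosb, Egr2 and Nr4a1, and on this TMM scale deletion replicate 2 is for the other 6 (3 with library totals).

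Fos encodes the founding FOS subunit of AP-1, which needs a JUN partner to bind DNA. The gene maps to chromosome 12, positions 85473890 to 85477273, plus strand (GRCm38). Fos had 4.41 and 12.9 CPM in control replicates 1 and 2 and 0.596, 3.95 and 5.14 CPM in deletion replicates 1, 2 and 3. Control replicate 2 was the highest and deletion replicate 1 by far the lowest, with control replicate 1 among the deletion values. The means were 8.67 ± 6.02 CPM (SD, n = 2) and 3.23 ± 2.36 (SD, n = 3). Deletion minus control came to a log2 fold change of -1.42 (95% interval -3.53 to 0.69, SE 0.882; edgeR, adjusted p = 0.995). Leaving out control replicate 2 gave -0.45 and leaving out deletion replicate 1 gave -0.91, so its size rests on these libraries. The low value in deletion replicate 1 rests on 17 counts, with an interval of 0.347 to 0.954 CPM, so it differed from the other deletion libraries by more than counting error.

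Fosb, a FOS relative known for stable splice forms that persist after repeated stimulation, was the least abundant member. It maps to chromosome 7, positions 19302696 to 19310051, minus strand. It had 0.214 and 2.23 CPM in control tissue against 0.105, 0.0626 and 0.278 CPM in deletion tissue, from 5, 46, 3, 2 and 15 counts. Only control replicate 2 stood clear of the others, and deletion replicates 1 and 2 were at or under the floor of 3 counts. Its estimated log2 fold change was -2.94 (95% interval -5.62 to -0.26, SE 1.12; edgeR, unadjusted p = 0.0361, adjusted p = 0.991). Without control replicate 2 it was -0.47 (edgeR, adjusted p = 0.957), so its size rests on that library.

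Jun encodes the JUN subunit that can pair with itself or with FOS, and its product acts on its own promoter. It maps to chromosome 4, positions 95049034 to 95052222, minus strand. Jun had 20.6 and 34.8 CPM in control tissue against 6.20, 53.8 and 35.3 CPM in deletion tissue. The deletion group held both the lowest library and the highest, 8.68-fold apart, with both controls between them. An antisense gene overlaps Jun, with 14 to 194 counts. Its log2 fold change of 0.20 (SE 0.800; edgeR, adjusted p = 0.997) had a 95% interval of -1.72 to 2.12. The estimate lay below 0 in 5 of 14 alternatives, at -0.13 without control replicate 1 and -0.41 without deletion replicate 2 among them.

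Junb encodes a JUN subunit that can oppose JUN at shared targets. It maps to chromosome 8, positions 84974484 to 84978718, minus strand. Junb had 6.20 and 3.20 CPM in control tissue against 2.07, 6.61 and 1.91 CPM in deletion tissue. On this TMM scale control replicate 1 and deletion replicate 2 were high together, and the other 3 libraries were lower. In TPM control replicate 1 was the lowest library. Prdx2 overlaps Junb on the opposite strand with 1348 to 2717 counts, and how strand was used in counting is unknown here. The fit put the log2 fold change at -0.42 (95% interval -2.08 to 1.25, SE 0.696; edgeR, adjusted p = 0.995).

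Atf3, which ties the immediate early response to cell stress, maps to chromosome 1, positions 191170296 to 191218039, minus strand. It had 14.8 and 49.7 CPM in control tissue against 9.46, 57.1 and 24.2 CPM in deletion tissue. The highest control and the highest deletion library were close, and each group also held a library at a fraction of that level. Group means were 32.3 ± 24.7 CPM (SD, n = 2) and 30.3 ± 24.4 (SD, n = 3), so the SD came near the mean in both. This gave a log2 fold change of -0.09 (95% interval -2.02 to 1.84, SE 0.804; edgeR, adjusted p = 0.999). Leaving out control replicate 2 gave 1.03 and leaving out deletion replicate 2 gave -0.93.

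Egr1, a zinc-finger factor that couples growth signals to transcription, maps to chromosome 18, positions 34859823 to 34864984, plus strand. It had 3.51 and 20.7 CPM in control tissue against 6.45, 36.6 and 9.71 CPM in deletion tissue. The replicates numbered 2 were the high library of each group, and control replicate 1 was the lowest of all. Deletion minus control came to a log2 fold change of 0.54 (95% interval -1.79 to 2.87, SE 0.971; edgeR, adjusted p = 0.995). It was 2.32 without control replicate 2, -0.23 without control replicate 1 and -0.58 without deletion replicate 2, so single libraries set its size and its sign.

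Egr2, the relative known for its part in Schwann cell myelination, maps to chromosome 10, positions 67535475 to 67542188, plus strand. It had 0.642 and 4.89 CPM in control tissue against 3.08, 1.19 and 0.575 CPM in deletion tissue. Here the second highest library was deletion replicate 1, which was low for Fos, Jun, Atf3 and Nr4a1. Its estimated log2 fold change was -0.78 (95% interval -3.19 to 1.63, SE 1.01; edgeR, adjusted p = 0.995), and 1.32 without control replicate 2.

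Nr4a1, an orphan nuclear receptor induced by many signals, maps to chromosome 15, positions 101254269 to 101274795, plus strand. It had 8.47 and 34.0 CPM in control tissue against 4.42, 12.7 and 5.66 CPM in deletion tissue. Control replicate 2 exceeded every deletion library, while control replicate 1 fell inside their range. The means were 21.2 ± 18.1 CPM (SD, n = 2) and 7.61 ± 4.49 (SD, n = 3), with a log2 fold change of -1.48 (95% interval -3.14 to 0.18, SE 0.693; edgeR, unadjusted p = 0.0720, adjusted p = 0.991). Without control replicate 2 it was -0.16, which removes most of the difference.

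Zfp36, the gene of tristetraprolin, had the only estimate above 0 that kept its sign throughout. It maps to chromosome 7, positions 28376784 to 28380253, minus strand. It had 10.4 and 16.4 CPM in control tissue against 10.5, 47.3 and 18.6 CPM in deletion tissue. Deletion replicate 2 stood above all others, and deletion replicate 1 was level with control replicate 1 within counting error (intervals of 9.39 to 11.8 and 9.13 to 11.8 CPM). The fit put the log2 fold change at 0.93 (95% interval -0.63 to 2.49, SE 0.653; edgeR, adjusted p = 0.995), and 0.13 without deletion replicate 2.

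Ier2, which encodes a small nuclear protein induced by growth factors, maps to chromosome 8, positions 84661331 to 84662852, minus strand. It had 5.05 and 2.61 CPM in control tissue against 3.40, 5.73 and 2.13 CPM in deletion tissue. It was the steadiest member, with 2.69-fold between the highest library and the lowest. This gave a log2 fold change of -0.03 (95% interval -1.45 to 1.38, SE 0.591; edgeR, adjusted p = 0.999). The interval is wide on both sides of 0, so a small estimate here does not show equal levels.

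**Figure D2:**
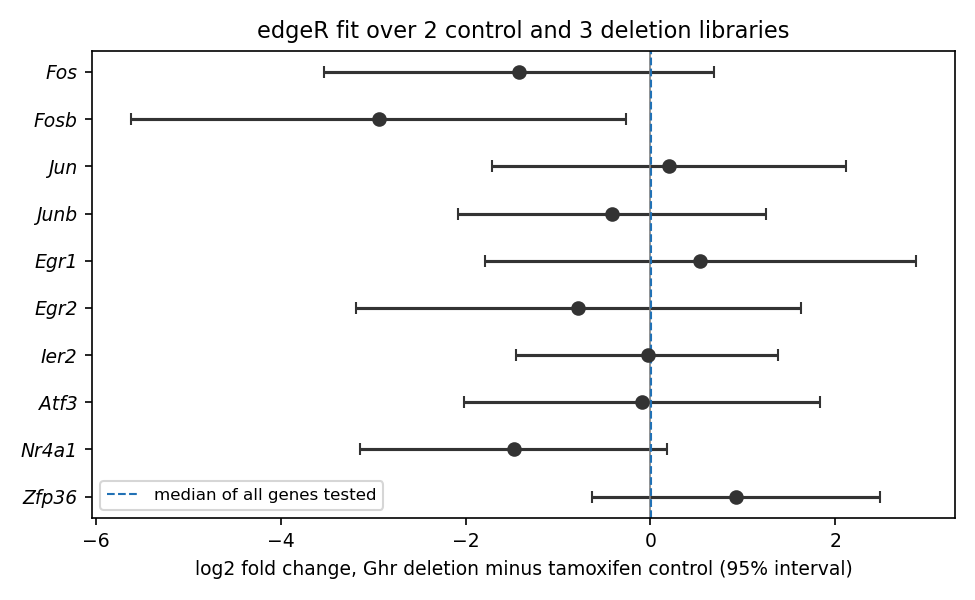
Estimated log2 fold change of each member, deletion minus control, with its 95% interval from the edgeR fit over 2 control and 3 deletion libraries. Of the 10 intervals, 9 hold 0, and that of Fosb runs from -5.62 to -0.26. The dashed line is the median of all genes tested, 0.004.

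The members varied more between libraries of a group than most genes did. The biological coefficient of variation, edgeR's estimate of the relative spread between libraries of a group beyond counting error, ranged from 0.517 for Ier2 to 0.834 for Fosb. Its median was 0.616 over members and 0.466 over all genes tested, and all 10 members lay above the latter. The highest library exceeded the lowest 8.10-fold at the median member and 2.51-fold at the median gene. Between the controls alone these medians were 3.15-fold and 1.46-fold, and among the deletion libraries 4.92-fold and 1.91-fold. These are descriptions of 10 genes chosen by name, with no test.

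**Figure D3:**
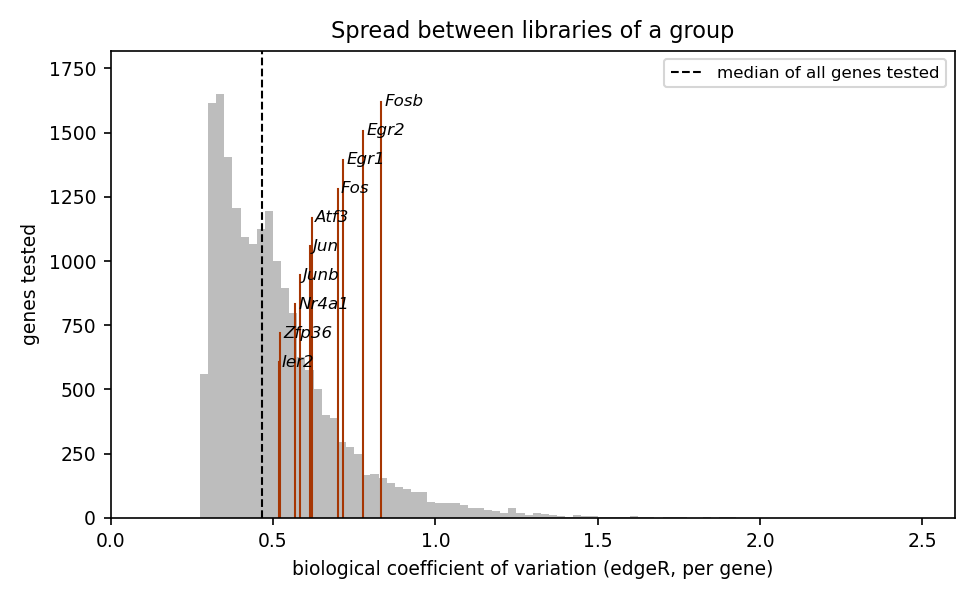
Distribution of the biological coefficient of variation over the 18615 genes tested (grey bars, genes per bin), with the 10 members as vertical lines whose heights only separate the labels. All members lie to the right of the dashed median of 0.466.

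The library of highest level differed between members. On the TMM scale, control replicate 2 was the highest library for 4 members (Fos, Fosb, Egr2 and Nr4a1) and deletion replicate 2 for the other 6, against 16.3% and 26.9% of all genes tested. On that scale no member was highest in another library, and deletion replicate 1 was the lowest for Fos, Jun, Atf3 and Nr4a1. Control replicate 2 exceeded control replicate 1 in 8 of 10 members, against 51.9% of genes, with Junb and Ier2 the exceptions. These orders depend on the scaling. With library totals, control replicate 2 was highest for 6 members, deletion replicate 2 for 3 and deletion replicate 3 for Jun. In the authors' TPM (transcript abundance per length), deletion replicate 3 was highest for Jun, Ier2, Atf3 and Zfp36, and deletion replicate 2 for 2 members. Fos, Fosb, Egr2 and Nr4a1 were highest in control replicate 2 under each scaling. The lowest library of Atf3 and Nr4a1 became control replicate 1 with library totals, and in TPM it was lowest, or tied for lowest, for every member but Fos. All 10 members were higher in control replicate 2 than in control replicate 1 with library totals and in TPM, where 93.8% and 97.2% of all genes tested were.

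Likeness of pattern was measured as the root mean square difference of log2(CPM + 1), centred on each gene's mean, over the 5 libraries. Junb and Ier2 were the closest pair, at 0.291. They lie on the same strand of chromosome 8 with 311631 bases between them. Both were high in control replicate 1 and deletion replicate 2 on the TMM scale. In TPM control replicate 1 was the lowest library for both, and likeness was not measured on another scale. Jun with Atf3 followed at 0.452, Egr1 with Atf3 at 0.475 and Egr1 with Zfp36 at 0.551. Among the members that peaked in control replicate 2, Fosb and Nr4a1 were 0.556 apart and Fos and Nr4a1 0.580. Outside control replicate 2, Fosb had only 0.0626 to 0.278 CPM. The added 1 narrows its range there, so its distances depend on that setting. Fos and its partner Jun were 0.696 apart, and the pair least alike was Jun and Egr2, at 1.42. Of 12480 other genes with a mean of at least 1 CPM, the 5 nearest to the mean pattern of the members were Mir22hg at 0.107, Wdfy1 at 0.123, Nudt11 at 0.148, Coq10b at 0.169 and Cebpb at 0.176. Mir22hg, the host transcript of a microRNA, had 6.20 and 14.6 CPM in control tissue against 4.21, 15.5 and 7.52 CPM in deletion tissue. Wdfy1 had 40.3 and 70.9 against 32.6, 76.5 and 43.9 CPM. Such likeness over 5 libraries is a description, with no test.

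**Figure D4:**
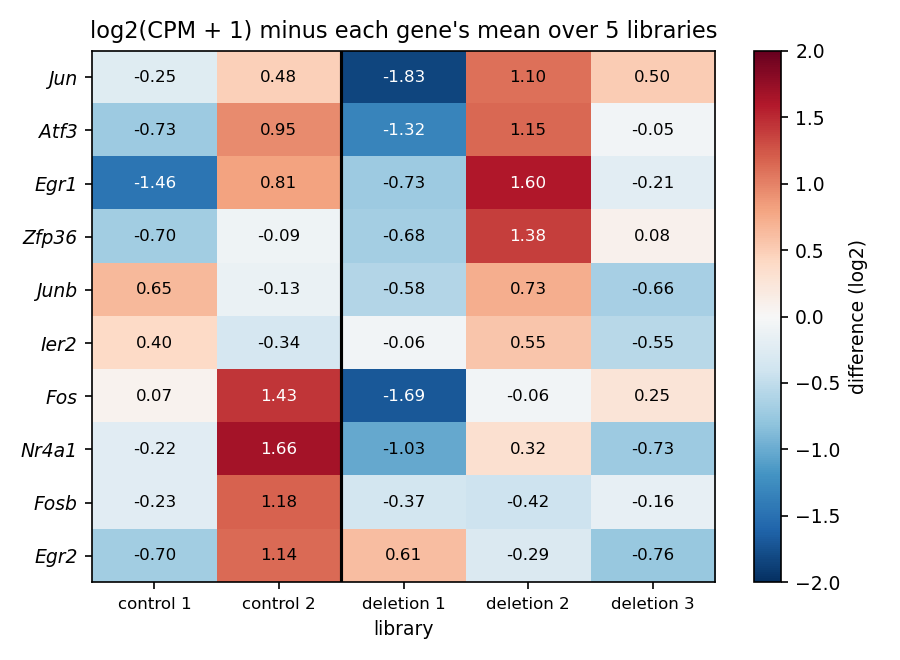
Difference of log2(CPM + 1) from each gene's mean over the 5 libraries (red above, blue below), for the 10 members (rows) in each library (columns), with controls left of the black line. The upper 6 rows peak in deletion replicate 2 on this TMM scale (3 members do with library totals) and the lower 4 in control replicate 2, and Fosb lies below its mean in every library but control replicate 2.

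Levels of different genes can be compared only per length, for which the authors' TPM was used. Atf3 was the highest of the 10 in every library, at 1.85 and 34.50 TPM in control tissue against 3.66, 24.20 and 35.56 TPM in deletion tissue. Fosb was the lowest in every library, from 0.01 to 0.75 TPM, and Egr2 ranked 8th or 9th. The median TPM over the 5 libraries was 24.2 for Atf3, 11.2 for Jun, 6.78 for Zfp36, 6.01 for Egr1 and 3.48 for Nr4a1. It was 2.0 for both Junb and Ier2, 1.6 for Fos, 0.39 for Egr2 and 0.02 for Fosb. The effective length that TPM divides by varied between libraries for Fos (879 to 1520 bases) and Egr2 (863 to 2759 bases). The ranges of neighbours in this order, pooled over libraries, overlapped at every step, although within each library Atf3 was highest and Fosb lowest. TPM sums to a fixed total in each library, so it also depends on the other transcripts: 7SL RNA, a short transcript, took 21.8% of the counts of control replicate 1 and from 2.03% to 10.5% elsewhere. The summed TPM of the members was 6.62 in control replicate 1 and from 12.3 to 95.3 in the others, and the part of 7SL RNA in this was not tested.

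Genes that act around the members were taken from 7 lists of 90 genes, of which 81 were tested. None passed in edgeR over all genes (adjusted p of 0.985 to 1.0), 3 had an unadjusted p under 0.05, and the groups did not overlap for 10, or 12.3%, against the background of 19.6%. Their fold changes were below 0 for 47 and above 0 for 34.

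Of 26 other immediate early genes 24 were tested, 16 of them with estimates below 0 and the median at -0.175. Nr4a2, the sister receptor of Nr4a1, had 5.86 and 18.7 CPM in control tissue against 1.26, 2.88 and 2.38 CPM in deletion tissue. All its deletion values lay below both controls, with a log2 fold change of -2.49 (SE 0.623; edgeR, unadjusted p = 0.00581, adjusted p = 0.985). DESeq2 passed Nr4a2, with an adjusted p of 0.0311, so its call depends on the tool. Btg1, an antiproliferative gene, was the only gene of this list with all deletion values above both controls, at 50.7 and 89.8 against 91.9, 265 and 115 CPM (edgeR, adjusted p = 0.991). The third receptor, Nr4a3, did not follow Nr4a2, at 114 and 116 CPM against 207, 18.8 and 27.7. Arc, a neuronal immediate early gene, had 0.856 and 0.968 CPM against 0.0350, 0.188 and 0.223, also without overlap. Nr4a3 and Arc were chosen after their values were seen.

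Of 10 further AP-1 family genes 8 were tested, 6 of them with estimates above 0 and the median at 0.39. Maff, a small MAF protein gene, had 2.48 and 4.70 CPM in control tissue against 4.38, 13.9 and 6.57 CPM in deletion tissue. Mafg, its relative, had 43.6 and 31.2 against 30.4, 28.7 and 30.6 CPM, with deletion values narrowly below both controls. The same held for the low-level gene Batf2, named after its values were seen, at 0.642 and 0.242 against 0.140, 0.0626 and 0.241 CPM.

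The 17 genes upstream of these promoters (SRF, its ETS and MRTF partners, CREB factors and MAP kinases) were all tested, and their median log2 fold change was -0.02. Crem, a CREB relative with inducible repressor forms, had 6.37 and 29.2 CPM in control tissue against 6.62, 14.3 and 8.69 CPM in deletion tissue. Map2k2, a MAP kinase kinase, had 35.3 and 12.1 against 19.5, 15 and 8.61 CPM. Groups did not overlap for a pair of genes named after their values were seen. Mrtfa, an actin-regulated SRF partner, had 12.4 and 12.3 against 8.48, 5.26 and 11.9 CPM. Rps6ka1, a kinase downstream of MAP kinases, had 36.2 and 33.0 against 19.0, 28.6 and 32.7 CPM. Of the EGR corepressors, Nab2 had 10.5 and 11.9 against 9.22, 7.52 and 8.37 CPM. Elavl1, listed with them and the ZFP36 relatives, encodes an RNA-binding protein that stabilizes AU-rich transcripts. Its values were 46.4 and 44.2 against 53.3, 62.3 and 53.7 CPM. Nab2 and Elavl1 were without overlap, in opposite directions, and neither passed (edgeR, adjusted p = 0.995 for both).

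Of 12 AU-rich transcripts known as ZFP36 targets 8 were tested, and 5 had estimates below 0. Vegfa, the vascular growth factor, had 102 and 26.7 CPM in control tissue against 19.8, 26.2 and 21.3 CPM in deletion tissue. The groups were only narrowly apart, at 26.7 against 26.2 CPM, and control replicate 1 was 3.83-fold above control replicate 2. The log2 fold change was -1.52 (SE 0.534; edgeR, adjusted p = 0.991). Ptgs2, the inducible cyclooxygenase, had 1.75 and 669 against 511, 308 and 3.49 CPM, a span of 382-fold between the controls and 146-fold among the deletion libraries. The 5 vas deferens and epididymis markers summed to 6.20 and 1600 against 5150, 4360 and 34.4 CPM, with 3, 1, 0, 0 and 2 markers at 0 counts, so they were high in the same 3 libraries as Ptgs2, and their part in that result was not tested.

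The stress genes that work with Atf3 were tested in 9 cases, 6 of them with estimates below 0 and the median at -0.71. On the TMM scale, unlike Atf3, all 9 were higher in control replicate 1 than in control replicate 2. On that scale 51.9% of all genes tested were higher in control replicate 2. With library totals 5 of 9 were higher in control replicate 2, against 93.8% of genes, and in TPM 8 of 9, against 97.2%. Chac1, a glutathione-degrading enzyme gene of the amino acid response, had 23.0 and 0.290 CPM in control tissue against 3.89, 1.32 and 0.445 CPM in deletion tissue. Trib3, a pseudokinase gene of the same response, had 3.25 and 0.726 against 1.02, 0.783 and 0.483 CPM. Of the heat shock genes, 9 of 10 were higher in control replicate 2 on the TMM scale, against 51.9% of genes. With library totals 9 of 10 were, and in TPM all 10, near the shares over all genes of 93.8% and 97.2%. Hspa1a, an inducible chaperone, had 4.71 and 10.7 CPM in control tissue against 4.73, 4.73 and 1.58 CPM in deletion tissue. Hsph1, a large heat shock protein gene, had 25.4 and 34.5 against 19.7, 7.96 and 28.7 CPM.

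Summed markers of cell types are given beside the sum of the members. The members summed to 74.3 and 181 CPM in control tissue against 46.3, 225 and 104 CPM in deletion tissue. The 6 luminal epithelial markers, none at 0 in any library, summed to 1630 and 2830 against 1490, 3320 and 3320 CPM. Control replicate 1 and deletion replicate 1 were thus the lowest libraries for both sums. Krt8, Epcam, Cdh1 and Cd24a had these same lowest libraries. Krt18 and Krt19 did not, with Krt18 lowest in control replicate 2 (328 CPM) and Krt19 highest in control replicate 1 (108 CPM). The 6 smooth muscle markers, also none at 0, summed to 1720 and 3060 against 4290, 1180 and 2630 CPM. Endothelial and macrophage markers, 6 each with none at 0, summed to 74.4 and 98.7 against 47.3, 34.0 and 41.6 CPM, and to 61.2 and 94.6 against 42.7, 38.7 and 47.1 CPM. Control replicate 2, the highest library for Fos, Fosb, Egr2 and Nr4a1, was also the highest for both of these sums. The part of cell content in the members' values was not tested.

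**Figure D5:**
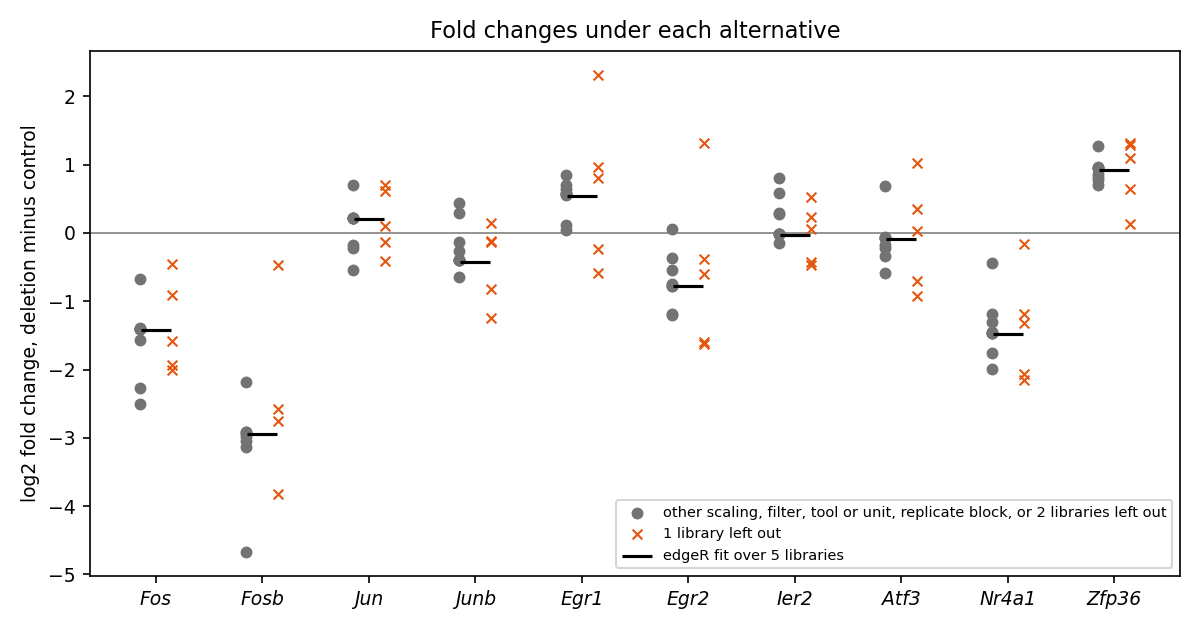
Log2 fold change of each member, deletion minus control, from the fit over 5 libraries (black bar), with 1 library left out (crosses) and under the other alternatives (grey dots). Fos, Fosb and Nr4a1 stay below 0 and Zfp36 above 0 wherever they were fitted, and the other 6 fall on both sides.

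Over all alternatives, the log2 fold change ran from -2.51 to -0.45 for Fos, from -4.67 to -0.47 for Fosb, from -2.16 to -0.16 for Nr4a1 and from 0.13 to 1.32 for Zfp36. None of these values passed. Jun, Junb, Egr1, Egr2, Ier2 and Atf3 had estimates on the other side of 0 in 2 to 7 of 14 alternatives each.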

How the data were processed

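RNA sequencing of total RNA gave 1 table per mouse with expected counts and TPM per gene. The authors made the deposited expected counts and TPM with bcl2fastq 2.20.422, STAR 2.5.3a and RSEM 1.3.0 on GRCm38, per the submitters' processing notes and the file headers; for strand and counting settings, nothing was given in the sources used here. Symbols and positions came from GENCODE M21, which named 99.5% of the gene IDs. No column of another sample was present.

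The members and gene lists were chosen with earlier results of these data known. Expected counts were rounded to whole numbers, filtered with filterByExpr, scaled by TMM and tested with edgeR 4.0.16 (robust quasi-likelihood, Benjamini-Hochberg adjustment, threshold 0.05) in R 4.3.3. CPM uses TMM-scaled library sizes, and the floor is 3 counts. Intervals on CPM are exact Poisson 95% and cover counting error only. Alternatives used DESeq2 1.42.0 and limma 3.58.1, other scalings and filters, TPM with a pseudocount of 1, a replicate block and left-out libraries. Scripts were tested on simulated data.

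All 10 members were named. Of each related list, the 2 genes of smallest p with a mean of at least 1 CPM were named, and by likeness the 5 nearest genes, from log2(CPM + 1). Other names are marked in the text. Cell type lists not given in the report had these summed CPM (controls, then deletion libraries): basal epithelium 93.4 and 65.5, then 54.3, 20.3 and 88.6, fibroblast 330.0 and 476, then 244, 75.4 and 200.0, and T cell 4.75 and 9.15, then 2.21, 1.63 and 2.47. Urothelium had 80.0 and 25.2, then 47.0, 68.4 and 164, and skeletal muscle 33.2 and 6.83, then 66.7, 3.92 and 6.09. Nerve had 2.87 and 5.23, then 5.36, 2.91 and 6.50, and neutrophil 0.642 and 1.26, then 0.245, 1.44 and 0.501, with Ly6g at 0 in all.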

Additional observations from a re-analysis of the deposited data

How the results depend on the processing

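No member passed under any of the 14 alternatives, the smallest adjusted p being 0.217 without control replicate 1 and deletion replicate 3. Over all genes, 46 passed with library totals, 166 with DESeq2, 14 with TPM in limma, 8 with the replicate block and 85 with those libraries both left out. Leaving out 1 library gave 0 to 48 genes, where 48 came without control replicate 2 and 2 came without deletion replicate 3. The members' median was -0.25, 0.58 with TPM (where the median of all genes was 0.68), and -0.77 to 0.23 with 1 library left out. Library totals moved the median of all genes to 0.227. Of 138 alternative values of single members, 115 kept their sign and 23 did not. The latter were Ier2 at 0.29 with library totals, Jun at -0.18 with limma-voom, and Junb at 0.30, Ier2 at 0.58 and Atf3 at 0.69 with TPM. With the replicate block they were Jun at -0.54, Egr2 at 0.06 and Ier2 at 0.28, and without both libraries Jun at -0.22, Junb at 0.44 and Ier2 at 0.80. With 1 library left out, Jun ran from -0.41 to 0.71, Junb from -1.24 to 0.14, Egr1 from -0.58 to 2.32, Egr2 from -1.63 to 1.32, Ier2 from -0.47 to 0.52 and Atf3 from -0.93 to 1.03. The cause was not tested. Fosb was not fitted with TPM or without deletion replicate 3, where it failed the filter. The labels do not say whether the replicate numbers pair the mice. Deviations from the group means correlated at r of 0.2 for number 1 and -0.144 for number 2. With 2 controls these deviations mirror each other, so the correlations cannot show whether mice were paired. The block gave the members a median of -0.24. Where 1 control was left out, the other is assumed to vary like the deletion group. With 2 against 3 libraries the median standard error was 0.529 on the log2 scale, which limits what could pass.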

Other observations

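RSEM's effective length of Fos, the transcript length its TPM is divided by, was 879 and 1179 bases in control tissue and 1243, 1520 and 1461 bases after deletion. That of Egr2 was 863 bases in control replicate 1 and from 2450 to 2759 bases in the others. TPM of these genes depends on it, and CPM does not. Zfp36, by contrast, stayed between 2386 and 2414 bases.

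Genes on the opposite strand overlap 4 members. The Jun antisense gene Junos had 14 and 38 counts in control tissue and 33, 38 and 194 counts after deletion, beside 177 to 1900 for Jun. Prdx2, which overlaps Junb, had 1348 to 2717 counts against 59 to 211 for Junb. Gm44710, opposite Zfp36, had 0 to 2 counts, and Gm24748, opposite Atf3, had 0 counts in every library. The strand setting of the counting is not given in the sources used here.

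Klf6 and Klf10, chosen after their values were seen, had the same high library as Zfp36 on the TMM scale. Klf6 had 117 and 137 CPM in control tissue against 78.3, 666 and 128 CPM in deletion tissue. Klf10 had 56.5 and 68.4 against 40.9, 347 and 71.2 CPM. In TPM the highest library of Zfp36 was deletion replicate 3.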
